A study of Caenorhabditis elegans with 8 samples.

Results

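The genes described here are the pseudogenes with detectable poly(A) RNA in late embryos of the nematode Caenorhabditis elegans. They were selected on their counts, as genes of biotype pseudogene in the Ensembl annotation of assembly WBcel235 with a summed count of at least 100 read pairs over 8 RNA-seq libraries. The rule kept 292 genes of 46748 identifiers in the count tables, which is 14.1% of the 2074 pseudogenes counted there. Of the other pseudogenes, 979 had no count in any library, and 54 annotated pseudogenes had no row in the tables.

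The study compared 2 strains in which lin-52, a gene of the DREAM complex, carries GFP and 3xFLAG tags. The strain called WT has the allele lin-52(bn139[lin-52::GFP::3xFLAG]), and the strain called 3A has the allele bn151, with the same tags and the substitutions L42A, C44A and E46A in LIN-52 (residues counted from the protein's start). Both groups therefore carry the tag, and untagged animals are not analysed here. Each group has 4 replicates of whole late embryos, taken from adults grown in liquid culture for 72 h (20 °C) and bleached, then held for up to 3.5 h. The study asked which genes are misexpressed when the pocket protein LIN-35 no longer associates with the MuvB part of the complex.

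A pseudogene is a copy or remnant of a gene that no longer encodes a full product. Many C. elegans pseudogenes belong to large families with young duplicates, such as the F-box genes, whose products act in ubiquitin ligases, and the chemoreceptors, which are used by sensory neurons. Some are transcribed from a promoter of their own, some lie within other genes, and those nearly identical to a working copy share reads with it. DREAM is a repressor of cell cycle genes and, in the worm soma, of germline genes.

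The libraries differed in depth and make-up. Between 14667743 and 68040557 read pairs were assigned to genes per library. Ribosomal RNA genes took 0.720% to 3.24% of these in WT and 1.75% to 40.7% in 3A, where replicate 4 was highest. Pairs that aligned to several places are in no gene's count. Of gene counts and all unassigned counts together, they were 1.82% to 5.43% in the other 7 libraries and 14.4% in 3A replicate 4. The mutated gene was at 12.3, 3.70, 6.36 and 4.82 CPM (read pairs scaled for depth, with edgeR's TMM factors) in WT replicates 1 to 4 and at 9.58, 3.80, 5.55 and 8.52 CPM in 3A replicates 1 to 4. lin-52 RNA thus overlapped between the groups (edgeR log2 fold change 0.00, SE 0.41, adjusted p = 0.998), and gene counts do not read the substitutions. A list of 9 germline markers, all with counts, summed to 29.6 to 85.3 CPM in WT and 91.2 to 155 CPM in 3A, and 1 of the 8 tested was called (syp-1). syp-1 was at 5.98 to 7.67 CPM in WT and 35.1 to 51.9 CPM in 3A, and every other gene of that list overlapped between the groups. The summed levels of the muscle, intestine, epidermis and neuron lists and of 3 adult oocyte and yolk genes overlapped between the groups, and no gene of these lists was at 0 throughout. Libraries within a group differed, however. WT replicate 1 was highest for intestine (346 CPM), epidermis (1760 CPM) and neurons (253 CPM), against at most 98.1, 874 and 92.9 CPM in the other WT libraries. The muscle list was highest in WT replicate 4 (4510 CPM). The oocyte and yolk genes summed to 39.7 CPM in WT replicate 4 and to 30.1 and 64.0 CPM in 3A replicates 3 and 4, against at most 5.66 CPM elsewhere. The marker genes' part in the results below was not tested. In whole embryos, fewer cells of a type and less RNA per cell cannot be told apart.

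1 library went against its group at a few loci. Only 4 of the 46748 genes had 0 counts in 3A replicates 1 to 3, at least 5 counts in each of the other 5 libraries, and a sum of at least 100, and 3 of the 4 are members. F44E7.17 had 60, 464, 977 and 47 counts in WT replicates 1 to 4, none in 3A replicates 1 to 3, and 38 in 3A replicate 4. C10C6.9 had 48, 208, 244 and 28 counts in WT, none in 3A replicates 1 to 3, and 15 in 3A replicate 4. srbc-15, of a chemoreceptor class, had 6, 121, 206 and 7 counts in WT, none in 3A replicates 1 to 3, and 7 in 3A replicate 4. The fourth gene, the protein-coding C13B7.6, had 410, 479, 817 and 81 counts in WT and 74 in 3A replicate 4. In CPM, 3A replicate 4 lay within or just under the WT range of the 3 members, at 3.48 for F44E7.17 (WT 1.80 to 7.47), 1.37 for C10C6.9 (WT 1.44 to 2.87) and 0.641 for srbc-15 (WT 0.180 to 1.67). A count of 0 allows up to 0.198, 0.0717 and 0.0997 CPM in 3A replicates 1 to 3 (3 counts each, counting error only). F44E7.17 (WBcel235 chromosome V, 5777429 to 5777901), C10C6.9 (IV, 11468395 to 11468900) and srbc-15 (V, 2345676 to 2348123) lie on the plus strand, and C13B7.6 (V, 2421867 to 2422895, plus strand) is on the same chromosome as srbc-15. These genes were chosen after their values were seen. No member was called on their account with all 8 libraries, where the edgeR adjusted p was 0.511 for F44E7.17, 0.42 for C10C6.9 and 0.409 for srbc-15. Without 3A replicate 4 the adjusted p was 0.00608, 0.00435 and 0.0874, so that F44E7.17 and C10C6.9 were then called lower in 3A (0.317% of all genes called in that fit). Calls that change without 3A replicate 4 are given with the results below.

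Most members were weakly expressed. Their median level over the 8 libraries was 1.01 CPM, with a range from 0.214 to 325 CPM, and 147 reached 1 CPM, 25 reached 10 CPM and 6 reached 100 CPM. Per kilobase of exon the median was 1.18 CPM per kb, against 3.45 CPM per kb for the 12556 protein-coding genes that pass the same count, and 79 members lay above the protein-coding median. Of protein-coding genes 63.9% reached a summed count of 100. The counts were concentrated in a few loci, since 3 members held 33.7% and 8 members 58.1% of the 592933 member counts. Together the members took 0.155%, 0.210%, 0.265% and 0.173% of gene counts in WT replicates 1 to 4 and 0.157%, 0.239%, 0.203% and 0.226% in 3A replicates 1 to 4, so the groups overlapped. In 3A replicate 4 a single member, the ribosomal RNA pseudogene rrn-3.56, held 18350 of the 39276 member counts.

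**Figure D1:**
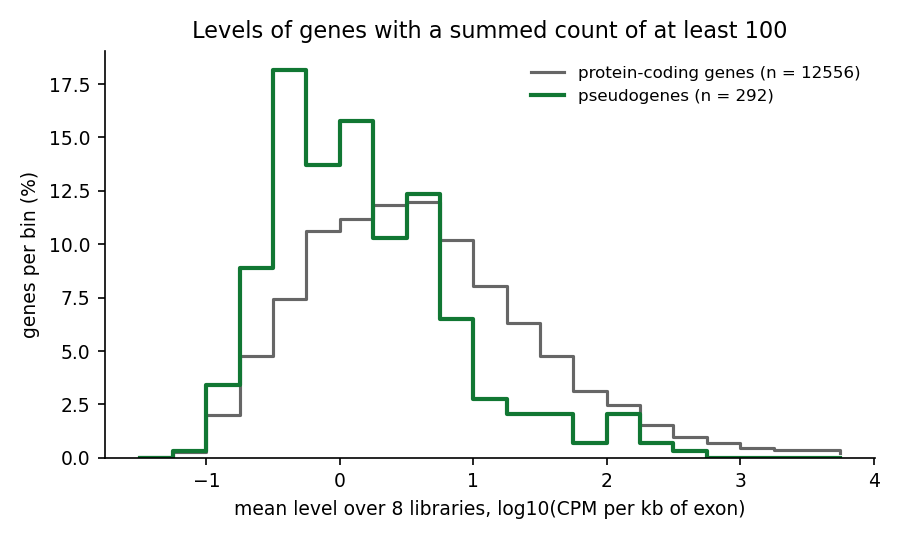
Distribution of mean level per kilobase of exon (log10 scale, 8 libraries) for 292 pseudogenes and 12556 protein-coding genes with a summed count of at least 100, as the percent of each class per bin. The pseudogenes sit lower, with a median of 1.18 against 3.45 CPM per kb, and a few reach beyond 100 CPM per kb.

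The cut of 100 is not a natural boundary. Just outside it were kin-6 with 97 counts, ZK1055.5 with 98 and fbxa-146 with 99, and just inside it Y57A10A.7 with 100, a gene on chromosome IV with 101 and T25G12.1 with 102. The WT libraries alone brought 238 members to 100 and the 3A libraries alone 147, while 51 reached it only in the sum. Only 3 reached it in 3A alone and not in WT alone. A count in every library was found for 270 members.

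Several properties that the rule did not use were described for the members. RefSeq gave 288 the biotype pseudogene, 3 that of a transfer RNA pseudogene and 1 that of a ribosomal RNA pseudogene. Only 55 have a gene-class symbol, and 237 are known by a sequence name. Their exons spanned a median of 922.5 bases in 4 blocks, against 849.5 bases in 3 blocks for the 1782 other pseudogenes, and 24 members had a single block. The share of pseudogenes that are members was 25.8% on chromosome I, 22.9% on II, 21.3% on III, 13.2% on IV, 6.61% on V and 16.8% on X. Chromosome V has 847 of the pseudogenes counted and 56 of the members. Members also lay near each other: 77 of them formed 32 groups with gaps of at most 10 kb, and the largest group held 7 members around C24H12.7 on chromosome II.

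The member with the highest CPM was F07H5.5 (II, 8787770 to 8789716, plus strand). It was at 304, 354, 355 and 294 CPM in WT replicates 1 to 4 and at 335, 358, 322 and 282 CPM in 3A replicates 1 to 4. All 8 libraries were thus within a narrow band, and the difference was -0.01 on the log2 scale (SE 0.27, edgeR adjusted p = 0.995). F07H5.3, upstream on the same strand (8784535 to 8785513), was at 96.6, 142, 142 and 171 CPM in WT and at 111, 82.4, 85.6 and 68.8 CPM in 3A. Only 3A replicate 1 lay inside the WT range there, and the fold change of -0.67 did not pass the adjusted test (SE 0.28, adjusted p = 0.482). F07H5.4, between them, was at 24.3 to 110 CPM in WT and 40.8 to 65.3 CPM in 3A, which overlap. Its per-length level of 102 CPM per kb was below the 142 of F07H5.3 and the 205 of F07H5.5.

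A collagen pseudogene and a pair on chromosome IV were also high and varied widely among replicates. col-182 (X, 12636153 to 12637056, minus strand) belongs by name to the collagens, the structural proteins of the cuticle. It was at 257, 124, 56.0 and 206 CPM in WT replicates 1 to 4 and at 218, 104.04, 80.1 and 103.7 CPM in 3A. The protein-coding col-180 was at 423, 146, 60.0 and 250 CPM in WT and 441, 120, 97.8 and 129 CPM in 3A. Both genes were highest in replicate 1 of each group. The protein-coding col-181 and col-184 were instead highest in WT replicate 4 (20.4 and 30.1 CPM) and 3A replicate 3 (23.5 and 35.3 CPM). Y24F12A.3 (IV, 11608900 to 11610910, plus strand) ran from 43.4 to 315 CPM in WT and from 37.1 to 224 CPM in 3A. Y24F12A.4, 1 of 2 members at that locus and on the minus strand, ran from 25.2 to 227 CPM in WT and from 98.9 to 257 CPM in 3A. Groups overlapped for col-182 and for both Y24F12A genes. The highest WT library was 4.59 times the lowest for col-182, 7.26 times for Y24F12A.3 and 8.997 times for Y24F12A.4. Each lay above the median ratio, which was 2.75 for members and 2.49 for protein-coding genes tested.

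The pseudogenes of noncoding RNAs included 2 of transfer RNAs with a high level per length. ZK380.t2 (X, 73 bases of exon) was at 11.8 to 26.1 CPM in WT and 9.25 to 35.6 CPM in 3A. D1005.t1 (X, 82 bases) was at 7.78 to 13.3 CPM in WT and 3.16 to 12.6 CPM in 3A. Both are shorter than the 150-base reads, so a level per kilobase rests on few positions. The ribosomal RNA pseudogene rrn-3.56 (I, 15060299 to 15061150, plus strand) had the highest level per length, 319 CPM per kb. It was at 21.3, 18.8, 35.3 and 28.5 CPM in WT replicates 1 to 4 and at 220, 79.2, 88.9 and 1680 CPM in 3A replicates 1 to 4. The groups did not overlap, and 3A replicate 4 was far above the rest. The fold change of 4.31 did not pass the adjusted test (SE 0.94, adjusted p = 0.102). Without 3A replicate 4 it was 2.33 (SE 0.42, adjusted p = 0.052). The ribosomal RNA gene rrn-3.1 was at a mean of 16805 CPM in WT and 221900 CPM in 3A, with its highest value also in 3A replicate 4 and with overlapping groups (log2 fold change 3.72, adjusted p = 0.408). The part of ribosomal RNA in the rrn-3.56 difference was not tested.

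**Figure D2:**
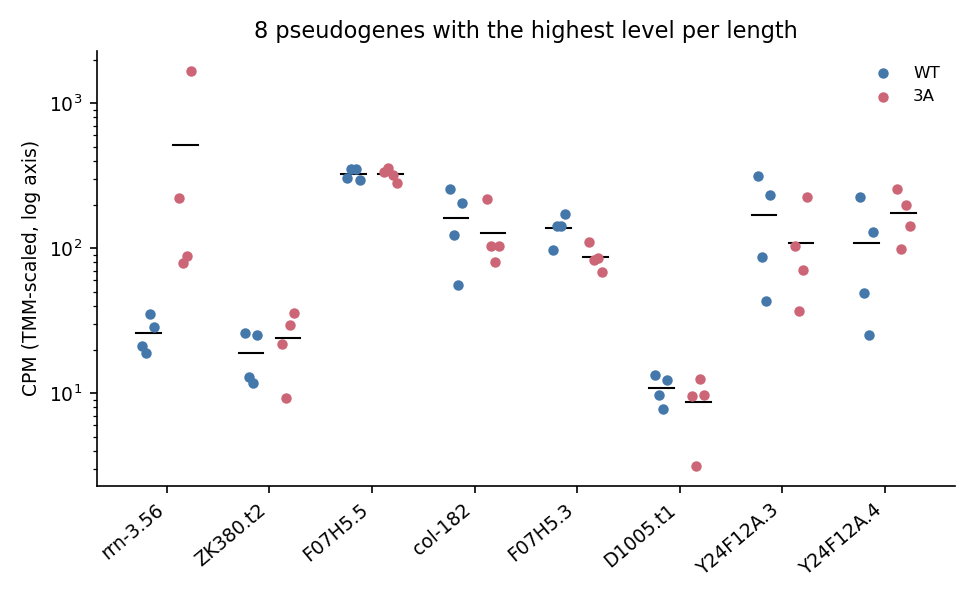
Level in each library (TMM-scaled CPM, log axis) of the 8 pseudogenes with the highest level per kilobase of exon, in order of that level. Points are libraries and black bars are means of 4. F07H5.5 is at 282 to 358 CPM throughout, and rrn-3.56 alone of the 8 has groups that do not overlap, with 1680 CPM in 3A replicate 4.

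The annotated positions of the members were compared with those of all other genes. No overlap with a protein-coding gene was found for 243 members, overlap on the opposite strand for 30 and on the same strand for 19. Exons overlapped those of a coding gene on the opposite strand in 17 members and on the same strand in 13. The libraries were made with a directional kit, per the labels, so reads of opposite strands can be told apart if counting kept the strands separate. That separation is checked below. Pairs that fit overlapping genes of the same strand go to a counter of their own. Median level was 1.08 CPM per kb without overlap, 1.78 on the opposite strand and 4.22 on the same strand, and the ranges of the 3 classes overlapped.

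The strand separation was checked on genes with exons wholly opposite a strongly counted gene. Over 15 such pairs, the host had at least 5000 counts and the inner gene at least 150 bases, limits set after a higher one left 1 pair. In 12 of the 13 pairs with no member the inner gene stayed at or under 1.83% of the host's level per length, and 5 inner genes had no count. The exception, R01B10.3 opposite cpi-2, was at 18.3%. The 2 members in such pairs stood above these values, W03B1.1 at 50.9% of W03B1.3 and Y37H9A.4 at 51.5% of ndx-4, both taken from summed counts. A member needs a summed count of at least 100, while the other inner genes had no minimum. That both members exceed the values up to 1.83% therefore follows from the rule.

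Members were often above the coding gene they oppose. Of 30 opposite-strand pairs with a counted partner, the member had the higher level per length in 21, and of the 17 pairs with overlapping exons in 13. Members were selected for a summed count of at least 100, while a partner needed only some count. These tallies, and the same-strand one below, are thus tilted towards the member by the rule. ZC513.7 (V, 8039469 to 8040387, minus strand) was at 81.7 CPM per kb against 0.594 for algn-12, whose end it overlaps. R10E8.7 was at 0.522 against 0.00593 for R10E8.3, and H15N14.4 at 1.45 CPM per kb against 0.0036 for D2005.1, which had 2 counts in all. At the other end of the pairs with overlapping exons, fbxa-93, an F-box pseudogene, was at 0.773 CPM per kb against 25.6 for W09G3.1. B0391.10 was at 0.201 against 1.52 for F28F8.7, and W03B1.1 at 1.91 against 4.66 for W03B1.3. H15N14.4 also lies opposite VH15N14R.1 without shared exonic bases, and that gene was at 397 CPM per kb, which is the lowest member-to-partner ratio of the opposite-strand coding pairs. On the same strand the member was above its partner in 11 of 16 counted pairs. In 4 members every exonic base is shared with the partner by the annotation used here. C24H12.7 and hpo-42 are among these and still had 1059 and 234 counts, and the partner of F54D5.16 was not counted. The annotation release behind the counts is not given, so overlaps may have differed at counting, and the split of their reads is uncertain.

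**Figure D3:**
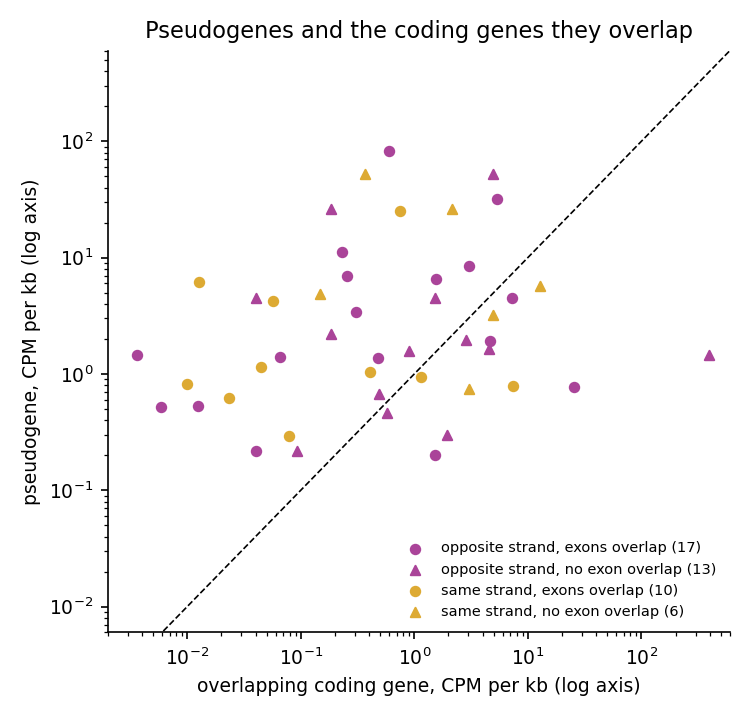
Mean level per kilobase of exon (log axes, 8 libraries) of each pseudogene against the protein-coding gene it overlaps, by strand and by whether exons overlap. The dashed line marks equal levels, and 21 of 30 opposite-strand pairs and 11 of 16 same-strand pairs lie above it. Only the pseudogenes had to reach a summed count of 100.

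Where 3A was compared with WT, 9 pseudogenes were higher in 3A and none was lower. The 9 are weakly expressed loci whose WT means lay between 0.355 and 2.17 CPM and whose 3A means lay between 1.86 and 34.9 CPM. Their fold changes ran from 1.91 to 4.78 on the log2 scale, and for each of them every 3A library lay above every WT library. The test was edgeR's quasi-likelihood test over 12664 genes with Benjamini-Hochberg adjustment, and an adjusted p under 0.05 made a call. It covered 263 members, of which 9 (3.42%) were called, against 0.371% of all genes tested, 0.355% higher and 0.0158% lower. The other 29 members, with summed counts of 101 to 188, fell under the filter on low counts. When genes were kept by the membership count itself, all 292 were tested and the same 9 were called, with a smallest adjusted p of 0.0824 among the 29 (background 0.359%).

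Pseudogenes made up 19.1% of the 47 called genes and 2.08% of those tested. Of protein-coding genes 0.296% were called. Within the range from 0.423 to 9.73 CPM, which holds most members, 8 of 209 members (3.83%) and 33 of 7160 protein-coding genes (0.461%) were called. At an unadjusted p under 0.05 there were 63 members (24.0%), 53 higher and 10 lower, against 9.75% of all genes tested. The groups did not overlap for 40 members upward (15.2%) and 3 downward (1.14%), against 3.8% and 2.36% of all genes tested. The median log2 fold change was 0.20 over the members tested and -0.08 over all genes, and 157 of 263 members were above 0 against 42.8% of all genes. The members' median turned to -0.17, with 113 of 263 above 0, when libraries were scaled by size alone, where the median of all genes was -0.40. It was 0.07 without 3A replicate 3, with -0.09 over all genes, and 0.15 without 3A replicate 4. These shares are descriptions of a set chosen with its results known. Without WT replicate 1 the fit called 21 members, 20 higher and 1 lower, with a background of 1.49%, and without 3A replicate 4 it called 11, the 9 and the 2 lower ones named above, with a background of 0.317%. All 9 called members reach a summed count of 100 in each group alone, so none became a member through the group in which it is high.

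**Figure D4:**
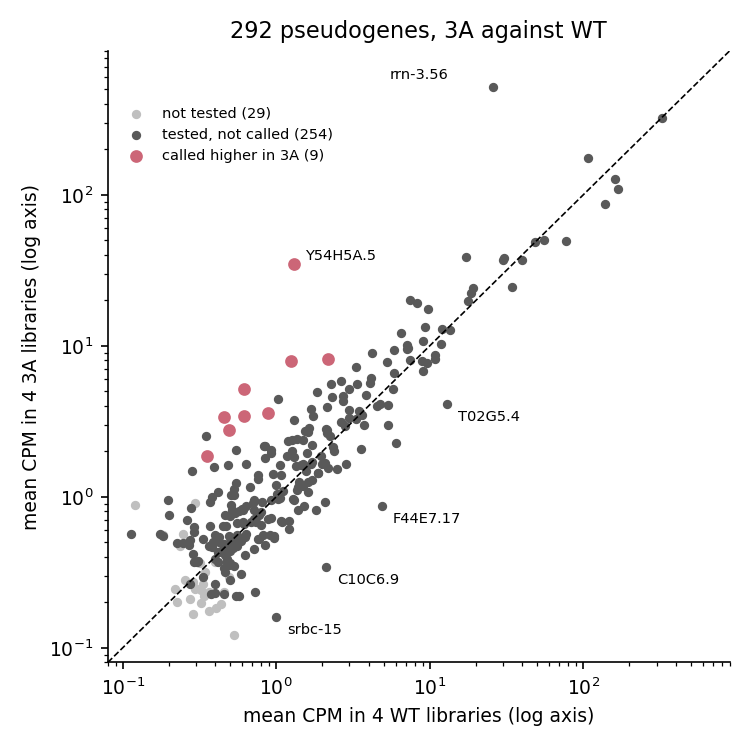
Mean CPM (log axes) of each of the 292 pseudogenes in 4 WT and 4 3A libraries, with the line of equal levels. The 9 called members (large points) lie above the line at WT means from 0.355 to 2.17 CPM. For rrn-3.56 every 3A library was above every WT library, and its 3A mean is raised most by 1680 CPM in replicate 4. The labelled points below the line include the 3 members with no count in 3A replicates 1 to 3.

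Y54H5A.5 (III, 5156434 to 5156886, plus strand) had the largest change. It was at 1.62, 0.981, 0.833 and 1.83 CPM in WT replicates 1 to 4 and at 37.7, 25.7, 44.3 and 31.9 CPM in 3A replicates 1 to 4. The lowest 3A library was thus far above the highest WT library. In the edgeR fit the difference was 4.78 on the log2 scale (SE 0.36, adjusted p = 0.000111), and it was called in each of the 17 settings run. It lies opposite oxy-4 without sharing exonic bases with it, and oxy-4 was at 2.94 to 9.27 CPM in WT and 5.77 to 11.2 CPM in 3A (log2 fold change 0.31, SE 0.36, adjusted p = 0.818). The genes on either side, grwd-1 and T10F2.5, changed by 0.20 and -0.12 with adjusted p of 0.852 and 0.952.

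T07D10.8 and C03B8.2 followed by adjusted p. T07D10.8 (I, 12596530 to 12598916, minus strand) was at 1.35, 1.02, 1.62 and 0.997 CPM in WT and at 7.60, 5.91, 6.18 and 11.8 CPM in 3A. Its fold change was 2.63 on the log2 scale (SE 0.33, edgeR adjusted p = 0.00535). The next member on the same strand, T07D10.10, was at a mean of 1.21 CPM in WT and 0.695 CPM in 3A (adjusted p = 0.708). C03B8.2 (III, 7715546 to 7716327, plus strand) was at 0.390, 0.994, 0.734 and 0.332 CPM in WT and at 3.90, 5.62, 6.02 and 5.22 CPM in 3A. The change was 2.99 (SE 0.38, adjusted p = 0.00535). It lies inside C03B8.3 on the same strand, with no shared exonic base, and that gene had at most 17 counts in a library. The following gene ncl-1, a regulator of nucleolar size, was at a mean of 2.18 CPM in WT and 6.34 CPM in 3A, which was not called (log2 fold change 1.502, adjusted p = 0.359).

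A further 3 of the 9 kept their call whichever library was left out. Y53F4B.8 (II, 14995045 to 14997446, plus strand) had the highest WT level of the 9 and little spread, at 2.19, 2.02, 2.003 and 2.49 CPM in WT and 8.19, 8.82, 6.78 and 8.79 CPM in 3A (log2 fold change 1.91, SE 0.25, adjusted p = 0.00565). W05G11.2 (III, 57702 to 58684, plus strand) was at 0.569, 0.594, 0.390 and 0.415 CPM in WT and 3.37, 2.65, 2.63 and 2.47 CPM in 3A (2.48, SE 0.33, adjusted p = 0.00615). F52C6.12 (II, 1929151 to 1930083, minus strand) was at 0.719, 0.401, 0.390 and 0.332 CPM in WT and 3.97, 2.25, 4.32 and 3.02 CPM in 3A (2.86, SE 0.38, adjusted p = 0.00615). In all 3 the lowest 3A library lay above the highest WT library. F52C6.12 stands in a group with the pseudogenes bath-11 and bath-6, named for MATH and BTB domains, and neither of these was called.

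The last 3 calls depended on which libraries were in the fit. Y39B6A.49 (V, 19094939 to 19096900, plus strand) was at 0.569, 0.470, 0.665 and 0.747 CPM in WT and 2.18, 4.26, 3.76 and 3.57 CPM in 3A (log2 fold change 2.52, SE 0.34, edgeR adjusted p = 0.00695). Its adjusted p was 0.0516 without WT replicate 2. Y37H9A.4 (I, 13795277 to 13795867, plus strand) was at 0.959, 0.856, 0.550 and 1.16 CPM in WT and 3.64, 3.73, 3.49 and 3.57 CPM in 3A (2.08, SE 0.32, adjusted p = 0.0151). It lost the call without WT replicate 2 or 3 or 3A replicate 1 or 3, with an adjusted p up to 0.0911. ZK1225.7 (I, 13224430 to 13225473, plus strand) was at 0.240, 0.373, 0.474 and 0.332 CPM in WT and 1.85, 1.63, 1.96 and 2.02 CPM in 3A (2.34, SE 0.36, adjusted p = 0.0151). It lost the call without WT replicate 2 or 3A replicate 1 or 3, with an adjusted p up to 0.0959. In WT replicate 4, the shallowest library, C03B8.2, F52C6.12 and ZK1225.7 each had 4 counts. With libraries scaled by their size alone, only Y54H5A.5 of the 9 remained called, and that scaling moved the median of all genes from -0.08 to -0.40.

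**Figure D5:**
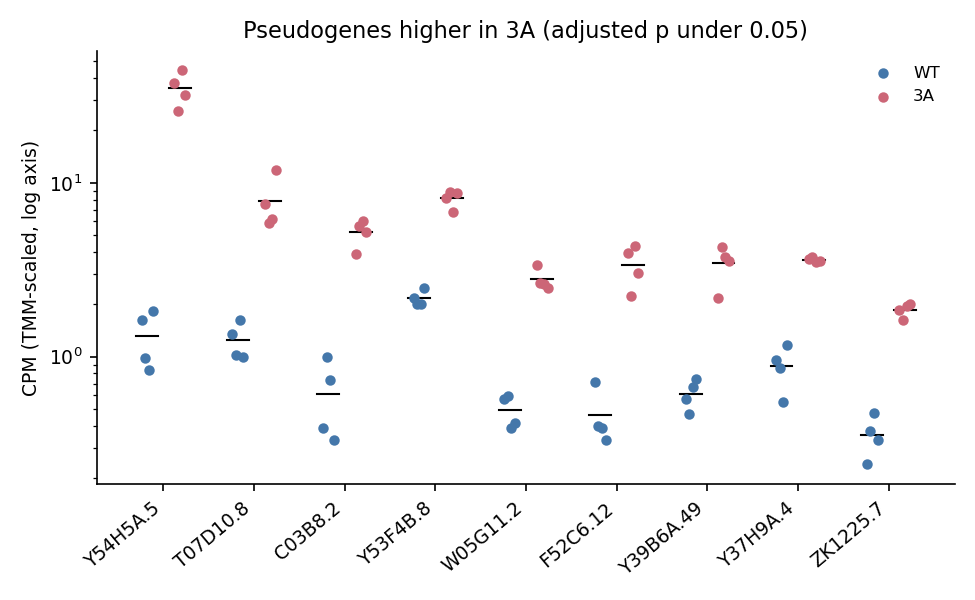
Level in each library (TMM-scaled CPM, log axis) of the 9 pseudogenes called higher in 3A, in order of adjusted p. Points are libraries and black bars are means of 4. In each of the 9 the lowest 3A point lies above the highest WT point.

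The 9 called members lie on 4 autosomes, with 3 of 44 tested on chromosome I, 2 of 68 on II, 3 of 33 on III and 1 of 48 on V. None was called of 45 tested on IV or of 25 on X, against 3.42% of all members tested, so these counts are too small to set a chromosome apart. Of the called members' 18 nearest neighbours 9 were tested and none was called, against a background of 0.371%. The closest of the tested neighbours, Y37H9A.5, 188 bases beyond Y37H9A.4 on the minus strand, was at a mean of 1.79 CPM in WT and 3.58 CPM in 3A (log2 fold change 0.98, adjusted p = 0.338). By overlap with coding genes, 6 of 215 tested members without overlap were called, 2 of 29 on the opposite strand and 1 of 19 on the same strand.

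For the 3 called members that overlap a coding gene, the ratio of the member to that gene was compared between groups. The log2 ratio of Y54H5A.5 to oxy-4 averaged -2.22 in WT and 2.16 in 3A, a shift of 4.38. That of C03B8.2 to C03B8.3, which had 0 to 17 counts per library and was not tested, averaged 2.24 and 4.77, a shift of 2.53. That of Y37H9A.4 to ndx-4, a Nudix hydrolase gene opposite to all its exonic bases, averaged -4.47 and -3.18, a shift of 1.29. ndx-4 itself was at 16.5 to 25.8 CPM in WT and 25.9 to 38.8 CPM in 3A (log2 fold change 0.76, SE 0.25, edgeR adjusted p = 0.382), a difference of the same sign that was not called. In each of the 3 pairs the groups did not overlap, and the two-sided exact permutation p was 0.0286, the smallest that 4 against 4 allows, with the same value after adjustment over the 3 ratios. The pairs were taken because the member was called, so this is not separate evidence of the member's change.

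The next 5 members by p did not pass. sams-2 (IV, 15942535 to 15944430, minus strand) is named for S-adenosylmethionine synthetase, the enzyme that makes the cell's methyl donor. It was at 7.85, 6.15, 7.07 and 8.64 CPM in WT and 18.6, 13.0, 25.1 and 24.0 CPM in 3A (log2 fold change 1.44, SE 0.27, adjusted p = 0.055). The protein-coding sams-1, sams-3, sams-4 and sams-5 had fold changes of 0.03, 0.11, -0.16 and 0.31 with groups that overlap. Y73B3B.5 (X, 199262 to 207723, plus strand) was at 0.390 to 1.495 CPM in WT and 3.17 to 6.05 CPM in 3A (2.16, SE 0.41, adjusted p = 0.0564). C08F11.6 was at 0.138 to 0.331 CPM in WT and 0.733 to 1.23 CPM in 3A (adjusted p = 0.0731), and Y57A10A.3 at 0.166 to 0.535 and 1.12 to 2.03 CPM (adjusted p = 0.102). The fifth is rrn-3.56, above. In all 5 the groups did not overlap. Without WT replicate 1, sams-2 (adjusted p = 0.0168), Y73B3B.5 (0.0121), C08F11.6 (0.0454) and Y57A10A.3 (0.0417) were called higher, and sams-2 also without 3A replicate 2 (0.0371). C08F11.6 and Y57A10A.3 each had 2 counts in WT replicate 4.

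Lower levels in 3A were fewer. Only C10C6.9, T02G5.4 and Y17D7C.4 had every 3A library below every WT library, and these were chosen after their values were seen. T02G5.4 (II, 7082102 to 7084083, plus strand) was at 21.9, 10.3, 8.33 and 11.5 CPM in WT and 5.22, 2.65, 3.39 and 5.22 CPM in 3A (log2 fold change -1.67, SE 0.37, edgeR adjusted p = 0.103). Without WT replicate 1 it was called lower, with a fold change of -1.29 and an adjusted p of 0.0446, in a fit that called 1.49% of all genes. With all 8 libraries it was also called lower by DESeq2's Wald test (-1.68, adjusted p = 0.00342, background 1.3%). The edgeR test with no filter beyond 1 count called it lower as well (-1.69, adjusted p = 0.0361, background 0.335%). Y17D7C.4 differed by a small margin, at 11.4 to 12.8 CPM in WT and 9.67 to 11.2 CPM in 3A (-0.22, adjusted p = 0.777). C10C6.9 is the member with counts in 3A replicate 4 alone of its group.

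At 1 locus the coding gene opposite a member was called, and the member's fold change had the other sign. The protein-coding F28F8.7 (V, 15578707 to 15590617, minus strand) was at 0.558 to 1.08 CPM in WT and 5.22 to 5.75 CPM in 3A and was called (log2 fold change 2.76, SE 0.31, adjusted p = 0.00197). F28F8.10, a pseudogene within its span on the plus strand (15588913 to 15589830) that shares no exonic base with it, was at 9.92, 4.23, 3.11 and 6.89 CPM in WT and 3.57, 1.98, 1.56 and 1.92 CPM in 3A. Its value in 3A replicate 1 lay inside the WT range, and it was not called (-1.42, SE 0.41, adjusted p = 0.305). B0391.10, a second pseudogene on the plus strand there, had 1 to 24 counts in WT and 1 to 55 in 3A and was not tested. Signs also differed in other opposite-strand pairs with neither gene called, such as F22D3.5 (1.87) and flcn-1 (-0.15).

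Families with a working copy were compared where the member has a gene-class name, with relatives picked after values were seen. Of 19 F-box members 17 were tested and none was called, and none of 156 tested protein-coding F-box genes was called, against a background of 0.371%. The median fold change was 0.08 in the former and 0.43 in the latter. The F-box member fbxb-36 was at 9.32, 5.21, 6.78 and 11.6 CPM in WT and 15.6, 13.1, 23.6 and 24.1 CPM in 3A (log2 fold change 1.22, SE 0.32, adjusted p = 0.24), without overlap. Its exons share bases with F07E5.13 on the same strand, a gene with no row in the tables. The BTB member btb-13, on the same chromosome, was at 3.69 to 4.82 CPM in WT and 6.93 to 10.7 CPM in 3A (1.10, SE 0.25, adjusted p = 0.127). Of 7 MATH and BTB members 4 were tested and none was called.

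Levels relative to the named relatives went both ways. cyp-31A1, of a cytochrome P450 class, was at 6.03 CPM per kb, above cyp-31A2, cyp-31A3 and cyp-31A5 at 0.334, 0.637 and 0.276 CPM per kb. In the libraries it was at 7.55 to 11.8 CPM in WT and 6.81 to 9.35 CPM in 3A, and the fold change was -0.15 (adjusted p = 0.873). snpc-3.3 was at 1.97 CPM per kb, above snpc-3.1 and snpc-3.2 at 0.612 and 0.471 and below snpc-3.4 at 4.42. By contrast cars-2, named like the cysteinyl-tRNA synthetase gene cars-1, was at 5.45 CPM per kb against 53.6 for cars-1. prg-2, relative of the Piwi Argonaute gene prg-1, was at 0.406 CPM per kb against 1.56, and asna-2 at 0.495 against 41.3 for asna-1. These levels leave out reads that fit a member and its relative equally well, and the loss depends on how alike they are, so their order is uncertain for near-identical copies. wee-1.2, relative of the Wee1 kinase gene wee-1.3, was at 0.581 to 1.23 CPM in WT and 1.39 to 2.26 CPM in 3A without overlap (1.06, adjusted p = 0.399), and wee-1.3 overlapped between groups (0.36, adjusted p = 0.819).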

How the data were processed

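Poly(A)-selected RNA of 8 libraries, 4 per strain, was prepared with a directional kit and read as 150-base pairs, per the labels' protocols. The submitters' processing notes name fastp, STAR, HTSeq, DESeq2 and WBcel235, with no versions or settings. The authors deposited whole-number counts per gene, not normalized, with closing counters that were left out of library sizes. Unassigned pairs (no feature) were 0.661% to 0.985% of the gene counts and closing counters together. Biotypes, positions and exonic lengths came from Ensembl release 115 of WBcel235, and names from RefSeq locus tags of the same spans, matched for all 292 members.

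Counts were tested in R 4.3.3 with edgeR 4.0.16 (filterByExpr with minimum count 10, TMM scaling, quasi-likelihood F-test, group as the only term, Benjamini-Hochberg over 12664 genes), and with DESeq2 1.42.0 as an alternative. The standard error is the fold change over the square root of F. CPM are TMM-scaled. Ratios of overlapping genes used a pseudocount of 1 count. Libraries of a group differed beyond sampling noise (chi-square per degree of freedom 60.3 or more), which does not show that they came from separate cultures. All were treated as replicates, which the study calls biological. What the replicate numbers share is not given in the labels, and p-values measure the spread between these samples.

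A count of 3 was the floor, 0.0229 to 0.275 CPM by library, for counting error only, since reads carry no molecular identifiers. The members and lists were chosen with earlier results of these data known. Genes were named by a rule (lin-52, called members, the 8 highest per length, the 5 uncalled with the smallest p, those beside the count limit, overlapping genes and extreme opposite-strand ratios), and others are said to be chosen afterwards. Libraries left out in turn, other scalings, filters, tests and a replicate block were tried.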

Additional observations from a re-analysis of the deposited data

Results flagged for a closer look

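Single libraries far from the rest of their group were sought among 54 groups of 4, where chance alone flags about 1 in 20. The measure is the gap of the extreme library to its neighbour, divided by the group's range, set against Dixon's critical value. For rrn-3.56 in 3A, replicate 4 stood apart with a ratio of 0.912, at 1680 CPM against 220 CPM in the next library. For C08F11.6 in WT, replicate 2 stood apart with a ratio of 0.853, at 0.331 CPM against 0.166 CPM. For H15N14.4 in WT, replicate 1 stood apart with a ratio of 0.866, at 0.479 CPM against 0.268 CPM.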

How the results depend on the processing

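All 9 called pseudogenes stayed called with RLE scaling (9 members and 48 genes called), without ribosomal RNA genes (9 and 45), and with genes kept by a summed count of 100 (9 and 47). More were called with no filter beyond 1 count (14 members, 71 genes), among them sams-2, Y73B3B.5 and rrn-3.56 as higher and T02G5.4 as lower. DESeq2's Wald test called 22 members and 165 genes, with 34 adjusted p not given, none of a member. It called sams-2, Y73B3B.5, C08F11.6, Y57A10A.3 and rrn-3.56 as higher and T02G5.4 as lower, and so did the replicate block. Scaling by library size alone left 2 members, Y54H5A.5 and rrn-3.56, and 10 genes. With the replicate block 26 members and 175 genes were called, all 9 among them, 23 members higher and 3 lower (T02G5.4, F28F8.10 and C10C6.9). With the block and the summed count of 100, added after seeing the data, 30 members and 196 genes were called. Same-numbered libraries correlated at 0.566, 0.600, 0.176 and 0.00849 in their deviations from the group means, and not every library correlated best with its own number, so the numbers were not taken to pair them. In the paired version the log2 ratio shifts stayed 4.38, 2.53 and 1.29, with an exact permutation p of 0.125, the smallest that 16 sign assignments give in a two-sided test.

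Leaving out 1 library gave 6 (without WT replicate 2) to 21 members (without WT replicate 1) and 18 to 196 genes. Genes called fell to 18 without WT replicate 2 or 3A replicate 3, 25 without WT replicate 3 and 30 without 3A replicate 1. The ratio shifts ranged from 4.04 to 4.83 for Y54H5A.5, 2.26 to 2.69 for C03B8.2 and 1.16 to 1.39 for Y37H9A.4. A limit of 200 counts would keep 193 members, and 373 pass at 50. Without ribosomal RNA in the denominator the mean member share in 3A was 0.256% in place of 0.206%. The ribosomal RNA pseudogene rrn-3.56 stayed among the member counts, and held 18350 of 39276 of them in 3A replicate 4. The 9 called members kept a positive fold change in every alternative run, while the members' median changed sign under library size scaling (-0.17, from 0.20). Depth limits the 29 untested members and those with fewer than 10 counts in WT replicate 4.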

Other observations

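Some members outside the naming rule had groups that did not overlap and were not called, and are given as values only, chosen after they were seen. T07G12.8 (IV, 10553349 to 10553935, plus strand), inside the meiotic pairing gene zim-1 on the same strand without shared exonic bases, was at 22.7, 13.4, 11.2 and 22.01 CPM in WT and 52.01, 28.9, 34.1 and 40.3 CPM in 3A (log2 fold change 1.17, edgeR adjusted p = 0.244). Its level per length was 52.1 CPM per kb against 0.370 for zim-1, whose own fold change was 0.08 (adjusted p = 0.979). ZK678.3 (X, 15748483 to 15749236, minus strand), opposite the chemoreceptor gene srxa-9, which had no count, was at 0.120 to 0.664 CPM in WT and 0.793 to 2.59 CPM in 3A (2.70, SE 0.59, adjusted p = 0.103). F44F1.5 (I, 13258381 to 13260217, minus strand) was at 7.16 to 11.4 CPM in WT and 13.7 to 20.2 CPM in 3A (0.85, adjusted p = 0.31). C43D7.11 was at 1.82 to 3.32 CPM in WT and 4.18 to 6.69 CPM in 3A (1.31, adjusted p = 0.149).

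Members lying together did not all move together. The 7 members around C24H12.7 had fold changes from 0.05 to 0.63, all positive and none called. In the group of 5 around Y57A10A.3 fold changes ran from -0.37 to 2.13, and 3 of the 5 were positive. The 3 F07H5 members ran from -0.67 to -0.01.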
